A study of Mus musculus with 13 samples.

Results

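The genes described here are 8 histone lysine demethylases, Kdm6a, Kdm6b, Kdm1a, Kdm1b, Kdm5a, Kdm5b, Kdm5c and Phf8, measured in whole mouse hippocampus. They were chosen by name, and every probe set that the platform annotation gives to 1 of them alone was read. Each gene had 1 such probe set, so 8 of the 35556 probe sets of the table were used. Kdm6a, Kdm5c and Phf8 lie on chromosome X, Kdm6b on chromosome 11, Kdm1a on 4, Kdm1b on 13, Kdm5a on 6 and Kdm5b on 1.

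Hippocampi of 13 C57BL/6J mice, 1 to 2 months old and fed standard chow, were each run on an Affymetrix Mouse Gene 1.0 ST array. Experiment 1 held 4 wild-type (Kmt2d+/+) and 3 heterozygous (Kmt2d+/βGeo) mice with no injections, and experiment 2 held 3 of each genotype, all given 3 saline injections per day. The βGeo gene trap allele of Kmt2d is a germline allele and models Kabuki syndrome, a human disorder with intellectual disability. The labels call 12 of the mice female and leave the sex of wild-type replicate 3 of experiment 1 as unknown.

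Histone demethylases remove methyl groups that methyltransferases such as Kmt2d place on histone tails. Kdm6a and Kdm6b act on lysine 27 of histone H3, a mark of silenced genes, and Kdm6a is a subunit of the complexes built around Kmt2c and Kmt2d. Mutations of KMT2D and of KDM6A both cause Kabuki syndrome in humans. Kdm5a, Kdm5b and Kdm5c remove methyl groups from lysine 4 of histone H3, the residue that Kmt2d methylates, and are enzymes of the JmjC type. Kdm1a and Kdm1b act on the same residue through a flavin cofactor and take only its lower methylation states. Phf8 acts mainly on lysine 9 of histone H3 and lysine 20 of histone H4, and mutations of human PHF8 and KDM5C cause X-linked intellectual disability. Kdm6a and Kdm5c escape X inactivation in mice and have copies on the Y chromosome, Uty and Kdm5d.

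The values are log2 intensities, in which a difference of 1 is a doubling of signal. The median array signal lay at 6.74 to 6.90 for uninjected mice and at 7.04 to 7.08 for injected ones. Correlations between arrays reached at most 0.946 across the experiments, against lowest values of 0.987 within experiment 1 and 0.983 within experiment 2. All 10 hippocampal neuron markers were measured, with means between the 73.2 percentile (Spink8) and the 99.8 percentile (Camk2a) of all probe sets. Kmt2d itself was read by 2 probe sets. Probe set 10432294 had mean levels of 7.33 in heterozygous and 7.88 in wild-type mice of experiment 1, and of 8.02 and 8.53 in experiment 2. Its heterozygous values all lay below its wild-type values within each experiment. They reached at most 7.47 against at least 7.87 in experiment 1, and 8.18 against 8.32 in experiment 2. Such a separation was found for 2.46% and 4.91% of all probe sets, in that order. The brighter probe set 10432298 differed by 0.07 between genotypes (limma adjusted p = 0.989). The stretch of transcript that each probe set covers was not known here, which limits both as a test of the labelled genotypes. Wild-type replicate 2 of experiment 1 stood apart in striatal markers, with a mean of 10 markers 2.27 above that over all arrays.

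The promoter windows of the X-linked demethylases are shown because these 3 genes were the members that separated the experiments without overlap. RefSeq (GRCm38.p6) gave a window for 6 of the 8 genes, and Kdm6b and Kdm5a are named only. Each window has 300 bases around a transcript start and is printed in the direction of transcription. Kdm6a is at chrX:18162325-18162624 on the plus strand and its Y-linked copy Uty at chrY:1245710-1246009 on the minus strand. Capitals mark CACGTG, a palindrome known as the E-box core.
Kdm6a: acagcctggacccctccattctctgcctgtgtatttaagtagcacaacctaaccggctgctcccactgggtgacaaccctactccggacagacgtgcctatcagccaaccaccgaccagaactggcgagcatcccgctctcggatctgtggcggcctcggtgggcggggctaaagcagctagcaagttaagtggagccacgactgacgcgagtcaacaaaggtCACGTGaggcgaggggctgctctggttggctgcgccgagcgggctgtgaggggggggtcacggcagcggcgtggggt
Uty: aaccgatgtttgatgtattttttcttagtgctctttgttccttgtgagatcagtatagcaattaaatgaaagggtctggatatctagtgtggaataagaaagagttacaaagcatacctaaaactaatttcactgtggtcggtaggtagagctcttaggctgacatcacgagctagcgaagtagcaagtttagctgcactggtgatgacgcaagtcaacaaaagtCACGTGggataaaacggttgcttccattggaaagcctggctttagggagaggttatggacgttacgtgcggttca
CACGTG occurs once in each window, starting at base 224 for Kdm6a and at base 226 for Uty, and 7.15% of the 32851 promoter windows hold it. Kdm5c is at chrX:152232977-152233276 and Phf8 at chrX:151520422-151520721, both on the plus strand. Capitals mark ATGGCG, the core of the motif bound by Yy1, on either strand.
Kdm5c: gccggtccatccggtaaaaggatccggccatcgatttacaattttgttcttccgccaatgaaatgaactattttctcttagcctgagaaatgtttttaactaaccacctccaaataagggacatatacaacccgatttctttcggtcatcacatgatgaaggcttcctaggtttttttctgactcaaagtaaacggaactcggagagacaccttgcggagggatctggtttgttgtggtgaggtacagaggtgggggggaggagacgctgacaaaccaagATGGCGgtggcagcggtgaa
Phf8: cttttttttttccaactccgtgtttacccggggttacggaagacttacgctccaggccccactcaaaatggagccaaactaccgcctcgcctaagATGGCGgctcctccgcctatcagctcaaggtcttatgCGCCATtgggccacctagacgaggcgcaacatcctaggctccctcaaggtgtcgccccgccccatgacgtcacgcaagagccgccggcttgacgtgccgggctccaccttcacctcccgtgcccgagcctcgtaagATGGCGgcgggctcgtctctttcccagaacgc
ATGGCG was found 1 time in the Kdm5c window and 3 times in that of Phf8, and 8.93% of all windows hold it. These letters were chosen after the sequences had been seen, and a match describes the sequence only. TATAAA was in none of the 6 windows, against 13.6% of all. CCAAT was in those of Kdm1a, Kdm5c and Phf8 (37.4% of all), and GGGCGG in those of Kdm1b, Kdm5b, Kdm6a and Phf8 (35.7% of all). The windows of Kdm1a, Kdm1b, Phf8, Kdm6a, Kdm5b and Kdm5c held 29, 26, 26, 21, 17 and 13 CG dinucleotides, against a median of 7 over all windows. The 75th percentile of all windows was 20, above those of Kdm5b and Kdm5c. Those of the Y-linked copies Kdm5d and Uty held 15 and 10.

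The demethylases gave signals from the middle of the table upwards. The mean over the 13 arrays lay near the middle of all probe sets for Kdm1b and at the 85.1 percentile for Kdm5b. The spread between mice of a group differed among the genes. Within-group SDs were 0.20 for Phf8 and 0.18 for Kdm6a, above the median of 0.15 over all probe sets. They were 0.14 for Kdm6b, 0.12 for Kdm1a and Kdm5a, 0.11 for Kdm5c and 0.07 for Kdm1b and Kdm5b.

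**Figure D1:**
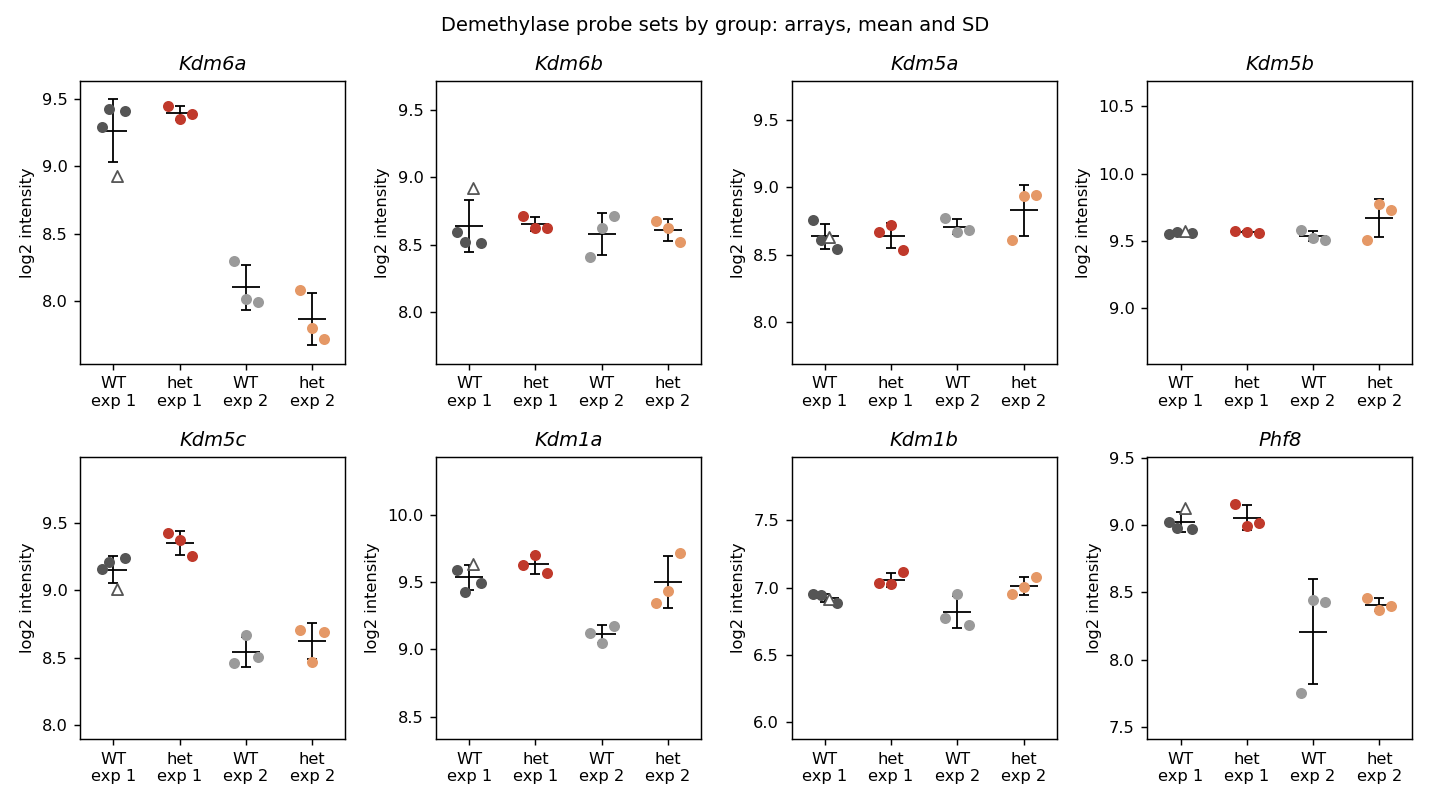
Log2 intensity of the 8 demethylases on each of the 13 arrays, by group, with 1 point per mouse and a bar at the group mean. Kdm6a, Kdm5c and Phf8 lie lower on every array of experiment 2 than on any array of experiment 1.

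Between the genotypes no demethylase passed the test. Over both experiments, limma called 0 of 35556 probe sets at an adjusted p of 0.05 (0%), and the lowest adjusted p of any probe set was 0.427. At an unadjusted p of 0.05, 3 members were higher in heterozygous mice (Kdm1a, Kdm1b and Kdm5c) and 0 were lower, where 2.51% of all probe sets were higher and 2.03% lower. In experiment 1 no member reached it (1.13% of all were higher and 1.62% lower), and in experiment 2 Kdm1a and Kdm1b were higher and 0 lower (4.67% and 4.42%). The median difference of the 8 members was 0.09, against 0.003 over all probe sets, and 7 of 8 were above 0 where 51.3% of all were. In experiment 1, 8 of 8 were above 0 (55% of all), and in experiment 2, 7 of 8 (48.9%). The differences of Kdm5a, Kdm5b, Kdm6b and Phf8 in experiment 1 were 0.007, 0.008, 0.016 and 0.032, each smaller than its SE. All members were read on the same arrays, so their signs are not independent. No member had every heterozygous value below every wild-type value, as 2.46% of all probe sets did in experiment 1 and 4.91% in experiment 2. The difference of the effects reached an unadjusted p of 0.05 for 0 members, against 2.99% of all above and 2.68% below 0. In bulk tissue, a change in the share of a cell type and a change of RNA per cell cannot be told apart.

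**Figure D2:**
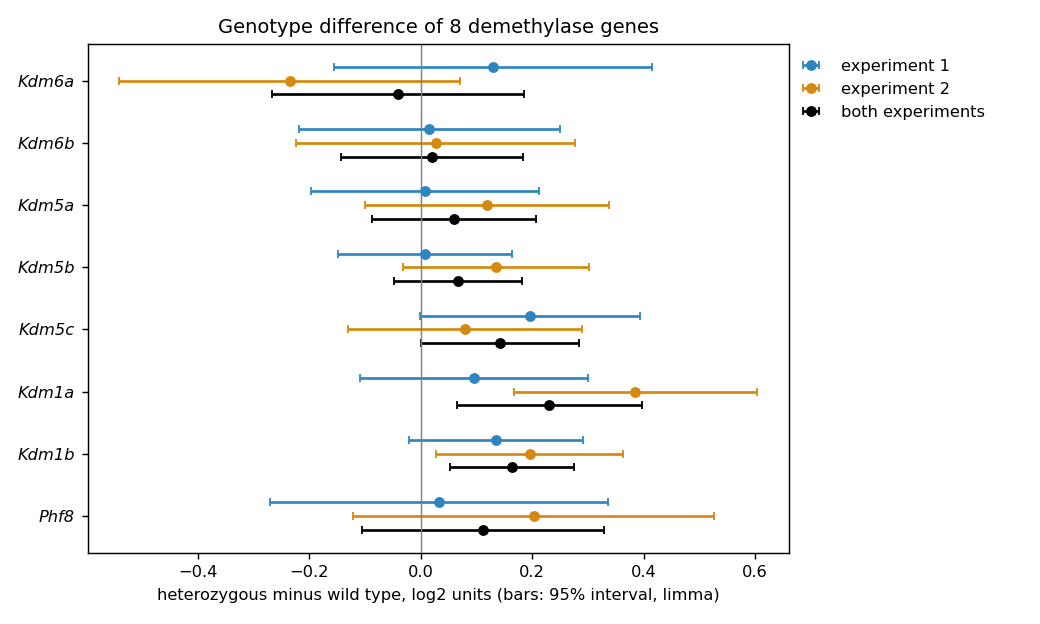
Heterozygous minus wild-type difference in log2 intensity for each demethylase, over both experiments and within each, with 95% confidence intervals from limma. Kdm1a and Kdm1b have intervals above 0 over both experiments and in experiment 2, Kdm5c has one whose lower end is just above 0 over both, and every adjusted p is above 0.05.

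Kdm6a, the other Kabuki syndrome gene, was read at 9.29, 9.43, 8.93 and 9.41 in wild-type and 9.45, 9.35 and 9.39 in heterozygous mice of experiment 1. In experiment 2 it was 8.30, 8.02 and 7.99 in wild-type and 8.08, 7.80 and 7.72 in heterozygous mice. The genotypes overlapped in both experiments. Over both, the difference was -0.04 ± 0.11 (SE; 95% interval -0.27 to 0.19; limma adjusted p = 0.992; exact permutation p = 0.653). It was 0.13 ± 0.13 in experiment 1 and -0.23 ± 0.14 in experiment 2, and the difference of these effects was -0.36 ± 0.19 (limma adjusted p = 0.850). The sign over both experiments turned without wild-type replicate 1 of experiment 2 (0.02) or heterozygous replicate 3 of that experiment (0.01). Without the array of unknown sex, the lowest Kdm6a value of its group, the difference was 0.02 in experiment 1 and -0.11 over both (exact permutation p = 0.26).

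Kdm6b, the signal-induced enzyme of the same specificity, was at 8.60, 8.52, 8.92 and 8.51 in wild-type and 8.71, 8.62 and 8.63 in heterozygous mice of experiment 1. In experiment 2 it was 8.41, 8.62 and 8.71 against 8.68, 8.62 and 8.52. Means were 8.64 and 8.65, then 8.58 and 8.61, all closer together than the mice of a group. The difference over both experiments was 0.02 ± 0.08 (95% interval -0.14 to 0.18), the smallest of the 8 in size. It depended on the array of unknown sex, which held the highest value of experiment 1 (8.92). Leaving out that array gave 0.11 in experiment 1 and 0.07 over both (exact permutation p = 0.225).

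Kdm5c was the one lysine 4 demethylase of the JmjC type near the unadjusted threshold. In experiment 1 it was 9.16, 9.21, 9.01 and 9.24 in wild-type mice and 9.43, 9.37 and 9.25 in heterozygous mice, so every heterozygous value lay above every wild-type value. This held for Kdm5c and Kdm1b among the members, and for 3.66% of all probe sets. In experiment 2 the values overlapped, at 8.46, 8.67 and 8.5 against 8.71, 8.47 and 8.69. The difference was 0.20 ± 0.09 in experiment 1 (limma adjusted p = 1; exact permutation p = 0.0286, the smallest possible with 4 against 3 mice). It was 0.14 ± 0.07 over both (1.10-fold; limma p = 0.0499, adjusted p = 0.989; exact permutation p = 0.0400). Without the array of unknown sex, which held the lowest value, it was 0.11 over both (limma p = 0.0994; exact permutation p = 0.06). After quantile normalisation of the 13 arrays the exact permutation p over both was 0.0886.

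Kdm5a and Kdm5b, autosomal enzymes of the same family, passed no genotype comparison. Kdm5a ranged from 8.54 to 8.76 in experiment 1 and from 8.61 to 8.94 in experiment 2, with a genotype difference of 0.06 ± 0.07 (95% interval -0.09 to 0.21). Kdm5b lay between 9.55 and 9.58 on all 7 arrays of experiment 1. In experiment 2 it was 9.58, 9.52 and 9.51 in wild-type and 9.51, 9.77 and 9.73 in heterozygous mice, of which the latter 2 were the highest of all arrays. Its difference over both experiments was 0.07 ± 0.05 (95% interval -0.05 to 0.18).

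Kdm1a, the demethylase subunit of the CoREST complex, was read at 9.59, 9.43, 9.63 and 9.49 in wild-type and 9.63, 9.70 and 9.56 in heterozygous mice of experiment 1. In experiment 2 it was 9.12, 9.04 and 9.18 in wild-type and 9.34, 9.44 and 9.72 in heterozygous mice. The 3 wild-type values of experiment 2 were the lowest of the 13 arrays, and every heterozygous mouse lay above them, as for 4.65% of all probe sets in that experiment. The difference was 0.39 ± 0.10 in experiment 2 (1.31-fold; 95% interval 0.17 to 0.60; limma p = 0.0023, adjusted p = 0.392; exact permutation p = 0.1, the smallest possible with 3 against 3 mice). It was 0.10 ± 0.09 in experiment 1, and over both 0.23 ± 0.08 (1.17-fold; limma p = 0.0102, adjusted p = 0.989; exact permutation p = 0.0129). Without heterozygous replicate 3 of experiment 2, the highest value, the difference there was 0.28. The difference of the 2 effects was 0.29 ± 0.14 (limma adjusted p = 0.850).

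Kdm1b, its flavin-dependent relative with a known role in the oocyte, was at 6.95, 6.94, 6.92 and 6.89 in wild-type and 7.03, 7.03 and 7.12 in heterozygous mice of experiment 1. In experiment 2 it was 6.78, 6.95 and 6.73 in wild-type and 6.95, 7.01 and 7.08 in heterozygous mice. The groups did not overlap in experiment 1, and in experiment 2 wild-type replicate 2 and heterozygous replicate 1 shared the value 6.952. The difference was 0.13 ± 0.07 in experiment 1, 0.20 ± 0.08 in experiment 2 and 0.16 ± 0.05 over both (1.12-fold; limma adjusted p = 0.989). The exact permutation p over both was 0.0029, where the smallest possible is 0.0014 and 24 such tests were made without adjustment. Leaving out each array in turn gave exact permutation p-values of 0.0029 to 0.0171 for Kdm1b, 0.0100 to 0.0286 for Kdm1a and 0.0143 to 0.120 for Kdm5c. Without the 3 arrays that stand apart (wild-type replicates 2 and 3 of experiment 1 and heterozygous replicate 3 of experiment 2) they were 0.04, 0.02 and 0.18 in that order. This alternative was chosen after seeing the data, and fewer arrays allow fewer regroupings. The last of these arrays held the highest values of experiment 2 for Kdm1b (7.08) and Kdm1a (9.72). No member had every heterozygous value above every wild-type value in both experiments, as 0.141% of all probe sets did. Marker levels also differed between the genotypes in experiment 1, though none of the markers given here passed the limma threshold. The mean of 10 dentate granule cell markers was 0.45 to 0.52 above its all-array mean in heterozygous mice of experiment 1 and -0.17 to 0.32 in wild-type mice. That of 9 oligodendrocyte and myelin markers was -0.26 to 0.10 in those heterozygous mice and 0.19 to 0.38 in wild-type mice, and 9 of 9 differences were below 0. All 11 choroid plexus markers had differences below 0 there (median -0.86), with overlapping means of -0.21 to 0.11 and -0.19 to 1.25. The lowest wild-type means there, -0.17 for dentate and -0.19 for choroid plexus markers, both came from replicate 2, which stood apart in striatal markers. In experiment 2 the means of all 3 lists overlapped between genotypes, and 2 of the lists mostly took the other sign. All 11 choroid plexus markers (median 0.38) and 8 of 9 oligodendrocyte and myelin markers (median 0.19) were above 0. Of the 10 dentate granule cell markers 7 were above 0 (median 0.02). The part of these markers in the members' differences was not tested.

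Phf8 was at 9.02, 8.98, 9.13 and 8.97 in wild-type and 9.16, 8.99 and 9.02 in heterozygous mice of experiment 1. In experiment 2 it was 7.76, 8.44 and 8.43 against 8.46, 8.37 and 8.40. The value of 7.76, in wild-type replicate 1, was the lowest of the 13 arrays, and the other 5 of that experiment lay between 8.37 and 8.46. Heterozygous minus wild-type was 0.11 ± 0.10 over both (limma adjusted p = 0.989), and that in experiment 2 was 0.20 ± 0.15, or -0.02 without that array.

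The related lists gave no call between genotypes either. Among 19 other demethylases and JmjC proteins, 12 were above 0 over both experiments, with a median of 0.02. Among 9 partners of Kdm6a in the Kmt2c and Kmt2d complexes 5 were above 0, and among 16 measured partners of Kdm1a 8 were.

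The mouse of unknown sex gave a reading of the X-linked members on an array with male-type signals. Xist, the noncoding RNA of the inactive X, was 4.81 there and 10.70 to 11.48 on the other 12 arrays. Uty was 8.83 there against at most 4.16, and Kdm5d 7.55 against at most 4.83. Kdm6a was 8.93, against a mean of 9.38 in the other 3 wild-type mice of experiment 1, which is 73.4% of their level on the linear scale. Kdm5c was 9.01 against 9.20, or 87.5%. Phf8, by contrast, was 0.14 higher than in those mice. Kdm6b was 8.92 against 8.54 (130.1%). The array held the lowest value of experiment 1 for Kdm6a and Kdm5c, as for 17.5% of all probe sets, and the highest for Kdm6b, as for 13.7%. Among other genes that escape X inactivation, Eif2s3x differed by -0.22 and Pbdc1 by -0.23, Mid1 by 0.19 and Utp14a by 0.08, and Ddx3x and Usp9x by less than 0.01 in size. A dimmer Ddx3x probe set was 9.57 on this array, against 9.84, 9.49 and 9.69 in the other wild-type mice of experiment 1. This is 1 array, so the differences have no test.

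**Figure D3:**
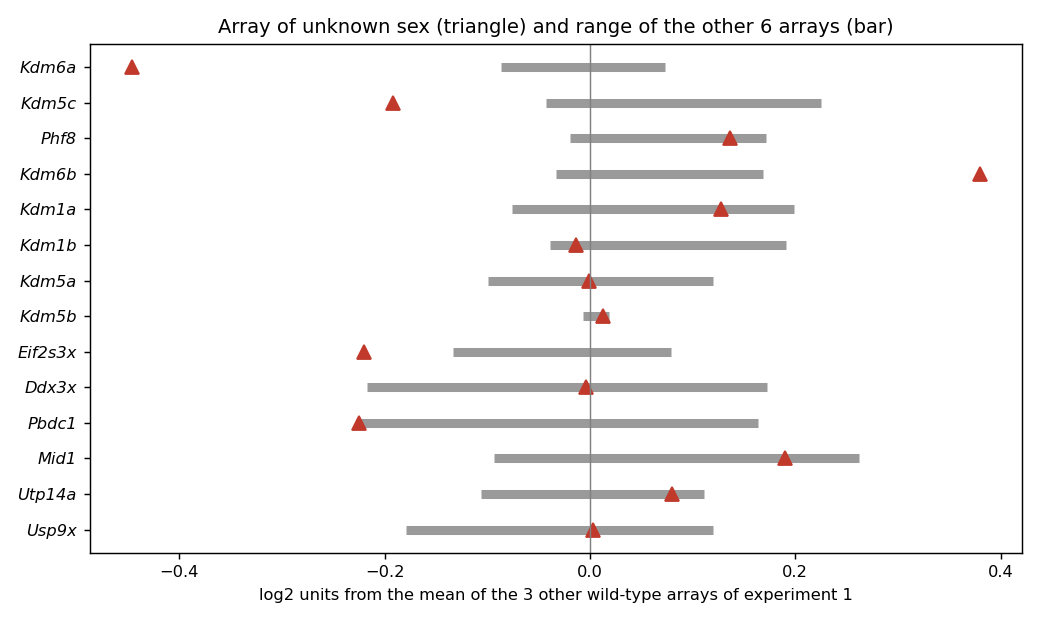
Log2 intensity on the array of unknown sex minus the mean of the other 3 wild-type arrays of experiment 1, for the demethylases and for other genes that escape X inactivation. Kdm6a lies at -0.45 and Kdm5c at -0.19. Bars give the range of the other 6 arrays of experiment 1 and are not error bars, as a single array allows none.

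The experiments differed far more than the genotypes. Injections and any separate array run or scaling cannot be told apart between them, and 73.4% of all probe sets passed the limma threshold. Of the members 4 were lower in experiment 2 (27.5% of all probe sets) and 0 were higher (45.9%) as deposited. After median centring of each array 7 were lower (41.3% of all) and 0 higher (24.9%). After quantile normalisation 4 were lower (31.1% of all) and 2 higher (30.2%). Kdm6a was lower by 2.52-fold, a difference of -1.34 ± 0.11 (95% interval -1.56 to -1.11; limma adjusted p = 8.33e-08). Phf8 differed by -0.74 ± 0.10 (1.67-fold; limma adjusted p = 1.9e-05), Kdm5c by -0.66 ± 0.07 (1.59-fold; limma adjusted p = 8.36e-07) and Kdm1a by -0.29 ± 0.08 (limma adjusted p = 0.00432). Kdm6a, Kdm5c and Phf8 lay lower on all 6 arrays of experiment 2 than on all 7 of experiment 1, as did 20.8% of all probe sets, and 0 members lay higher throughout (28.4%). Kdm6b, Kdm1b, Kdm5a and Kdm5b differed by -0.05, -0.08, 0.13 and 0.03 and did not pass. Without heterozygous replicate 1 of experiment 2, Kdm5a passed at 0.17 (limma adjusted p = 0.0349).

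**Figure D4:**
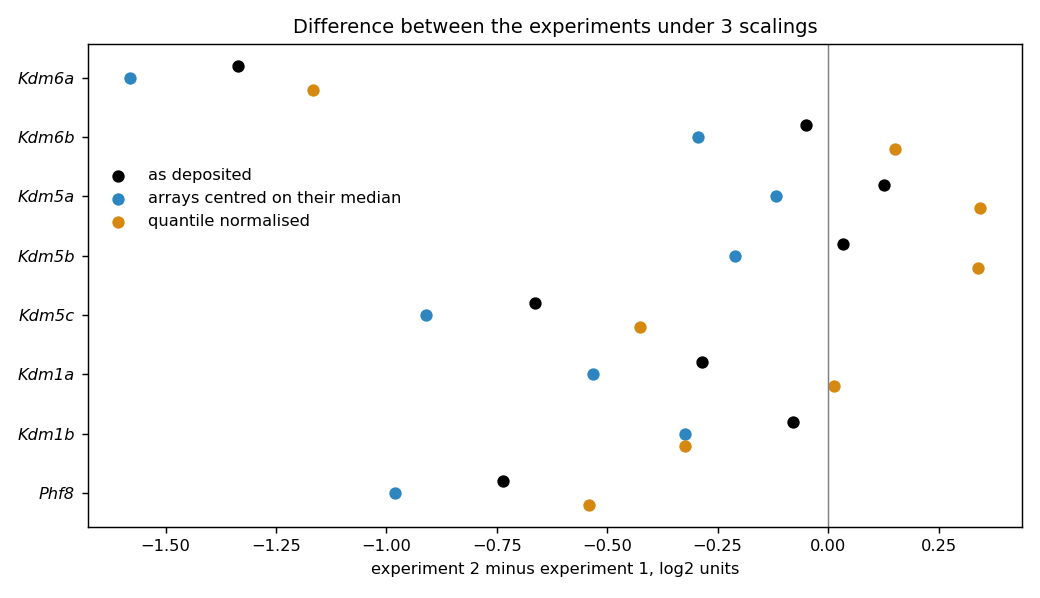
Difference in log2 intensity between the experiments (2 minus 1) for each demethylase, under the deposited scaling and with arrays centred on their medians or quantile normalised. Kdm6a, Kdm5c and Phf8 lie below 0 under all 3 scalings.

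Scaling set the zero of this comparison. The median of all probe sets was 0.15 as deposited, -0.10 after each array was centred on its median and 0.0002 after quantile normalisation. The share of called probe sets that were higher was 62.5%, 37.6% and 49.2% in that order. Kdm6a was at -1.58 and -1.17 under the latter 2 scalings, Kdm5c at -0.91 and -0.43, and Phf8 at -0.98 and -0.54. The call of Kdm1a was lost under quantile normalisation, with a difference of 0.01 (limma adjusted p = 0.890), and in heterozygous mice alone, with -0.13 (limma adjusted p = 0.370), against -0.42 in wild-type mice alone. Kdm5a and Kdm5b took different signs between scalings. After quantile normalisation both passed as higher, at 0.34 each (limma adjusted p = 0.000539 and 6.95e-05). After median centring Kdm5b passed as lower, at -0.21 (limma adjusted p = 0.00774), and Kdm5a was at -0.12 and did not pass. Kdm1b passed as lower at -0.32 under both of these scalings, and Kdm6b as lower at -0.30 after median centring only. Of 790 X-linked probe sets 38.4% were lower and 35.4% higher, against 35% and 41.4% of 20871 autosomal ones. The mean of 8 astrocyte markers lay 0.15 to 0.41 above its all-array mean in experiment 1 and -0.51 to -0.31 in experiment 2. The means of 10 hippocampal neuron markers (0.03 to 0.36 against -0.31 to -0.13) and of 10 dentate granule cell markers (-0.17 to 0.52 against -0.58 to -0.22) also lay apart without overlap, and the part of these markers in the result was not tested.

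The lists around the members differed between the experiments as well. For comparison, 27.5% of all probe sets were lower and 45.9% higher as deposited. The lists hold 1 probe set per named gene, while all probe sets include unnamed ones. With 1 probe set per gene, 7054 of 19938 were lower and 8331 higher as deposited. The shares of all probe sets were 41.3% and 24.9% after median centring, and 31.1% and 30.2% after quantile normalisation. Of 19 other demethylases and JmjC proteins, 12 were lower and 2 higher as deposited, 14 and 0 after median centring, and 11 and 2 after quantile normalisation. Among them were Kdm7a, which acts on lysines 9 and 27 of histone H3, at -1.94 ± 0.08, the asparagine hydroxylase Hif1an at -1.74 ± 0.08, Riox2 at -1.33 ± 0.08 and Jmjd1c at -0.63 ± 0.05. Of 9 partners of Kdm6a, 6 were lower and 2 higher as deposited, 6 and 1 after median centring, and 2 and 3 after quantile normalisation. The adaptor Pagr1a was at 0.91 ± 0.10 and the scaffold Wdr5 at -0.53 ± 0.06. Ncoa6 at -0.38 ± 0.05 and Kmt2c at -0.37 ± 0.06 lost their call after quantile normalisation (-0.08 and -0.05). Of 16 measured partners of Kdm1a, 7 were lower and 4 higher as deposited, 10 and 1 after median centring, and 7 and 7 after quantile normalisation. The corepressor Rcor1 was at -1.02 ± 0.06, Mta2 at -1.12 ± 0.06, the deacetylase Hdac2 at -1.70 ± 0.14 and Zmym2 at -0.95 ± 0.10. Of 9 genes of the X escape list, which includes Kdm6a, Kdm5c and Xist, 6 were lower and 1 higher as deposited, 7 and 0 after median centring, and 6 and 0 after quantile normalisation. The initiation factor subunit Eif2s3x was at -2.19 ± 0.07, the helicase Ddx3x at -1.61 ± 0.10 and the deubiquitinase Usp9x at -1.29 ± 0.09. A dimmer Ddx3x probe set, 10546760, shifted less. Its means were 9.65 in wild-type and 9.68 in heterozygous mice of experiment 1, and 8.80 and 8.93 in experiment 2.

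The genes whose values followed those of Kdm6a most closely were found by the root-mean-square difference over the 13 arrays after centring each gene within its experiment. Among 19937 genes with a median of 0.213, the closest were Krt90 (0.073), Smco4 (0.0737), Rdh7 (0.0765), Gm826 (0.0798) and Sftpd (0.086). Their mean levels were 5.04 to 6.88, and they lie on chromosomes 15, 9, 10, 2 and 14. Kdm5c ranked 4160 and Phf8 18612 by the same measure. A gene constant within each experiment would score 0.178, the root-mean-square of centred Kdm6a itself. The measure thus also depends on each gene's own spread, and a rank does not give the correlation with Kdm6a.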

How the data were processed

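The authors deposited log2 intensities; the submitters' processing notes name RMA and oligo as the tools behind them. RMA subtracts background, equalises array distributions and combines probes by median polish. Neither a genome build nor a joint or separate normalisation of the 13 arrays is recorded in the labels. Per the labels' protocols, RNeasy was used for RNA and an Ambion WT kit for labelling. No per-sample column was left unused (0).

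Of 35556 probe sets, 21789 had 1 gene symbol, 1621 had several and 12146 had none. RefSeq gene IDs (GRCm38.p6) matched 21698. A gene with several probe sets was led by the one of highest mean.

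Tests used limma 3.58.1 in R 4.3.3 (lmFit, eBayes), two-sided, with Benjamini-Hochberg adjustment over all probe sets and a threshold of 0.05. They were also run on simulated data, in which the planted genotype differences were larger than that of any member. That run does not show how differences of the members' size fare. Genotype over both experiments had the experiment as a term, and the effects within experiments came from a model of the 4 groups. Exact permutation regrouped mice within experiments (700, 35 or 20 ways). The members and lists were chosen with earlier results of these data known. Named outside the members were Kmt2d, sex-linked genes, up to 4 genes of lowest p per list among those that passed, and the 5 genes most like Kdm6a. Same-numbered mice of the 2 genotypes had deviations that correlated at -0.25 to 0.17, so the numbers were not taken to pair them. Alternatives were other probe set choices, scalings, array weights, eBayes settings and left-out arrays. The number of arrays limits the precision.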

Additional observations from a re-analysis of the deposited data

Results flagged for a closer look

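In the group of 4 wild-type mice of experiment 1, the array of unknown sex (replicate 3) stood apart from the other 3 for Xist and the Y-linked Uty and Kdm5d. Xist was 4.81 there, Uty 8.83 and Kdm5d 7.55. Kmt2d probe set 10432298 was 9.83 on the same array, where the other 3 shared a single value, so that any departure made up the whole range. A gap to the nearest value above 0.829 of the group's range marks such values, and chance marks about 1 in 20 groups. Among the demethylases on that array the gap was 0.724 of the range for Kdm6a, 0.791 for Kdm6b, 0.653 for Kdm5c and 0.677 for Phf8, all below that limit.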

How the results depend on the processing

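Of 912 values of the members under other settings, 870 kept their direction and their side of the threshold and 35 changed sign. Whatever the sign, 7 newly passed and 2 no longer passed, all between the experiments. Members called between genotypes stayed at 0 under every alternative. The count over all probe sets within experiment 1 became 4 with 1 probe set per gene, 4 with only single-symbol probe sets, 12 with array weights and 1 with only its own arrays. Within experiment 2 it became 2 without the dimmest 30%, 3 after quantile normalisation and 2 with trend and robust eBayes, and 0 to 19 with single arrays left out (19 without heterozygous replicate 1 of experiment 2). Over both experiments it became 1 with array weights. Between the experiments 26086 became 15385 with 1 probe set per gene and 16865 with single-symbol probe sets, as fewer were tested. The 4 members called became 7 with median centring (0 higher), 6 with quantile normalisation (2 higher) and 3 with heterozygous mice only. In the same settings the count over all probe sets was 23555, 21792 and 18829, in that order.

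Between the experiments, sign changes gave Kdm5a -0.12 and Kdm5b -0.21 (median centred), Kdm6b 0.15 and Kdm1a 0.014 (quantile), Kdm5b -0.026 (wild-type mice only) and Kdm6b 0.014 (without the 3 arrays that stand apart, an alternative chosen after seeing the data). With array weights, Kdm6a over both was 0.032, Kdm6b in experiment 2 -0.0039 and its difference of effects -0.023. Without the 3 arrays, Kdm5a in experiment 1 was -0.0058 and the Kdm6b difference of effects -0.031. With the replicate number as a block, Kdm6b was -0.00012 over both and -0.027 in experiment 1, and Kdm5a -0.024 in experiment 1. The replicate block left 0 probe sets called between genotypes and 24618 between the experiments, and changed no call of a member. With single arrays left out, the genotype difference of Kdm5a in experiment 1 ranged from -0.032 to 0.060, Kdm6a over both from -0.11 to 0.020, and Kdm6b over both from -0.015 to 0.069, from -0.027 to 0.11 in experiment 1 and from -0.059 to 0.092 in experiment 2. The difference of effects ranged from -0.084 to 0.077 for Kdm6b and from -0.056 to 0.29 for Phf8, whose genotype difference was -0.021 to 0.066 in experiment 1 and -0.024 to 0.32 in experiment 2. The causes were not tested. A mean over several probe sets of a gene was not run, as each member has 1.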
